A study of Mus musculus with 12 samples.

Results

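The miR-199 and miR-214 microRNAs (miRNAs) were examined in the colon and the blood of mice with chemically induced colitis. Their members were chosen by name, as the rows of the deposited count table named mmu-mir-199a-5p, mmu-mir-199a-3p, mmu-mir-199b-5p, mmu-mir-199b-3p, mmu-mir-214-3p and mmu-mir-214-5p. These are 6 of 1978 rows, and they hold 5 distinct mature sequences, because miR-199a-3p and miR-199b-3p are identical. The 1405 rows for which a sequence is given hold 1391 distinct ones. Small RNA was sequenced from colon and whole blood of 6 C57BL/6 male mice, purchased at 8 weeks of age, which gave 12 libraries. In each tissue, 3 mice (1, 7 and 9) had drunk water with dextran sulfate sodium (DSS), a polysaccharide that injures the colonic epithelium, at 1.5% (wt/vol) for 7 days. The 3 controls (2, 4 and 8) were matched in time and drank the same water without DSS, and all mice were sacrificed on day 8. No allele or agent other than DSS is named for either group. The groups are those of the heatmap labels in the study, matched by the mouse number in the library names, which name no treatment. The sample labels conflict with this. Their disease state field gives colitis for mice 1, 2 and 4 and control for mice 7, 8 and 9, and in all 12 libraries the tissue field contradicts the source field. The tissue field was followed, as the heatmap of the colon uses the library names that this field gives as colon. Blood and colon RNA was isolated with different kits, so tissue and kit cannot be told apart.

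A miRNA is cut from a hairpin RNA, and either arm of the hairpin can become the mature strand that guides the silencing of messenger RNAs. The bases near its 5′ end, called the seed, pair with the targets. miR-214 and a copy of miR-199a come from a long noncoding RNA, Dnm3os, which is transcribed antisense to the dynamin gene Dnm3 and is known from mesenchymal tissues. Both families are known as miRNAs of fibroblasts and other stromal cells, where they have been studied in fibrosis, and they are scarce in epithelial cells.

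The mature sequences of the 5 distinct members are shown 5′ to 3′ because they decide which arms can be told apart by sequencing. Capitals mark the seed, bases 2 to 8.
miR-199a-5p: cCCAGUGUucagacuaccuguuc
miR-199b-5p: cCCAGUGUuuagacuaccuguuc
miR-199a-3p and miR-199b-3p: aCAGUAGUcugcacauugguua
miR-214-3p: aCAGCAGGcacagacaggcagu
miR-214-5p: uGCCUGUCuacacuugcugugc
The 5p arms of miR-199a and miR-199b share a seed and differ by 1 base outside it, C10U, counted from 1 at the 5′ end with the base of miR-199a-5p first. A read of one with that base wrong has the sequence of the other, so their separation is uncertain to that extent. The shared 3p sequence was counted under both names, with 31892 counts for miR-199a-3p and 31749 for miR-199b-3p in the colon of mouse 1, and it is given below as miR-199a-3p. No other of the 1405 rows with a sequence holds a seed of these miRNAs. The RefSeq table used (GRCm38.p6) lists the same mature sequence for each row except miR-199b-5p, whose sequence is taken from the deposited tables.

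The hairpins are shown to place the arms, with the mature sequences in capitals, on the genome build GRCm38.p6 as annotated by RefSeq and in the direction of transcription.
Mir199a-2: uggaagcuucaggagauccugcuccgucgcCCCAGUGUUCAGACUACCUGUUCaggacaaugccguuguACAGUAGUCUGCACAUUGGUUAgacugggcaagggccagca
Mir214: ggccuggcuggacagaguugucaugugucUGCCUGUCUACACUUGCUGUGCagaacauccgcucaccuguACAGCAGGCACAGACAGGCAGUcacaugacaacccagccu
Mir199b: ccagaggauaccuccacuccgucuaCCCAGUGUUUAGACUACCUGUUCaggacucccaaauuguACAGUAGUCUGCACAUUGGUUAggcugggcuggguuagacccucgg
Mir199a-1: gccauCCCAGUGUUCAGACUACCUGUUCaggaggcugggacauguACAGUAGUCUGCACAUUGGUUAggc
Mir199a-2 (chr1:162217814-162217923, plus strand) and Mir214 (chr1:162223368-162223477, plus strand) lie in exonic sequence of Dnm3os and in an intron of Dnm3 on the other strand, with 5444 bases between them. Mir199b (chr2:32318460-32318569, plus strand) lies in an intron of Dnm1, and Mir199a-1 (chr9:21496495-21496564, minus strand) in an intron of Dnm2, each on the strand opposite to the dynamin gene. miR-199a-5p can therefore come from 2 hairpins, and the shared 3p sequence can come from 3 of them.

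A colon library held 15060553 to 20106226 counts and a blood library 21127134 to 32944792. These totals count a sequence under each of its names, which raised the blood totals most. Levels are given as CPM, the counts of a miRNA relative to all counts of its library after TMM scaling, and edgeR's quasi-likelihood test was used, with "passed" meaning a Benjamini-Hochberg adjusted p (padj) of at most 0.05. Significantly differentially expressed (SDE) means in addition a fold change over 1.5, the limit of the study. As a check of the tissues, the members of a list of erythroid miRNAs had in blood a median of 10100% of their colon level, and those of an epithelial list 0.975%. Single miRNAs ranged from 2576% to 40167% on the erythroid list and from 0.138% to 990% on the epithelial list. In these mixed tissues fewer cells of a type and less RNA per cell cannot be told apart. Every pair of libraries within a group differed by more than sampling noise, with chi-square per degree of freedom from 122 to 3011.

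The first comparison asked whether the miR-199 and miR-214 arms differ between DSS mice and controls in the colon. miR-199a-5p and the shared miR-199-3p sequence were higher in DSS mice by 1.53-fold and 1.44-fold, and no other arm passed the test. The 2 that passed, of 5 sequences tested, stand beside 7.56% of the 542 miRNAs tested in colon that passed as higher and 4.24% that passed as lower. Scaling moves that split, from 41 higher and 23 lower as reported to 6 and 10 with RLE factors, 4 and 4 with upper-quartile factors, and 38 and 9 with total counts alone. All 5 sequences had a log2 fold change (log2FC) above 0, as did 52.4% of the miRNAs tested. The median log2FC was 0.53 over the 5 sequences and 0.04 over all miRNAs tested. With total counts alone these medians were 0.76 and 0.26.

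miR-199a-5p is the 5p arm of the hairpins in Dnm3os and Dnm2. In the colon of DSS mice it had 2608 CPM in mouse 1, 2562 in mouse 7 and 2799 in mouse 9. The controls had 1895 CPM in mouse 2, 1686 in mouse 4 and 1622 in mouse 8. The groups do not overlap, as was the case in the same direction for 22.5% of the miRNAs tested. The means were 2656 ± 126 and 1734 ± 143 CPM (SD, n = 3 each), with a log2FC of 0.62 (SE 0.12) and a padj of 0.0431 by edgeR. With a fold change of 1.53 it was SDE, which held for 5.9% of the miRNAs tested as higher. It is close to the limit: with DESeq2, with at least 10 counts in every library and without mouse 9 it passed the test, but with fold changes of 1.46, 1.49 and 1.49 it was not SDE.

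The shared miR-199-3p sequence, the 3p arm of those hairpins and of the one in Dnm1, stood at nearly the same level. DSS mice had 2285 CPM in mouse 1, 2551 in mouse 7 and 2771 in mouse 9. Controls had 1708, 1788 and 1779 CPM in mice 2, 4 and 8. The control values lie close together and all below the DSS values. The mean was 2536 ± 243 CPM against 1759 ± 44.1 (SD, n = 3 each), with a log2FC of 0.53 (SE 0.12) and a padj of 0.0431 by edgeR, and the fold change of 1.44 was under the limit for SDE.

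miR-199b-5p, from the hairpin in Dnm1, was far less abundant than its near-identical relative. DSS mice had 41.1, 48.7 and 41.3 CPM in mice 1, 7 and 9. Controls had 35.8, 29.0 and 37.5 CPM in mice 2, 4 and 8. The groups do not overlap, but the log2FC of 0.36 (SE 0.17, 95% interval -0.04 to 0.75) did not pass, with a padj of 0.190 by edgeR.

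miR-214-3p, the more abundant arm of miR-214, was the least even member in DSS mice. They had 113, 70.0 and 134 CPM in mice 1, 7 and 9, against 92.1, 78.4 and 90.5 in control mice 2, 4 and 8. Mouse 7 was below every control and mouse 9 above every control, so the groups overlap. The log2FC was 0.28 (SE 0.24, 95% interval -0.29 to 0.86), with a padj of 0.456 by edgeR. It was 0.07 without mouse 9 and 0.51 without mouse 7. The interval with all mice includes no change as well as the sizes seen for miR-199a.

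miR-214-5p, the other arm of that hairpin, had 23.1, 22.9 and 29.0 CPM in DSS mice 1, 7 and 9. Controls had 19.4, 15.4 and 14.8 CPM in mice 2, 4 and 8. The groups do not overlap, and the log2FC of 0.60 (SE 0.18, 95% interval 0.16 to 1.04) is of the size seen for miR-199a-5p, with a padj of 0.0826 by edgeR, above the threshold. The padj depends on the whole table, and 31.4% of the miRNAs tested in colon had an unadjusted p under 0.05.

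**Figure D1:**
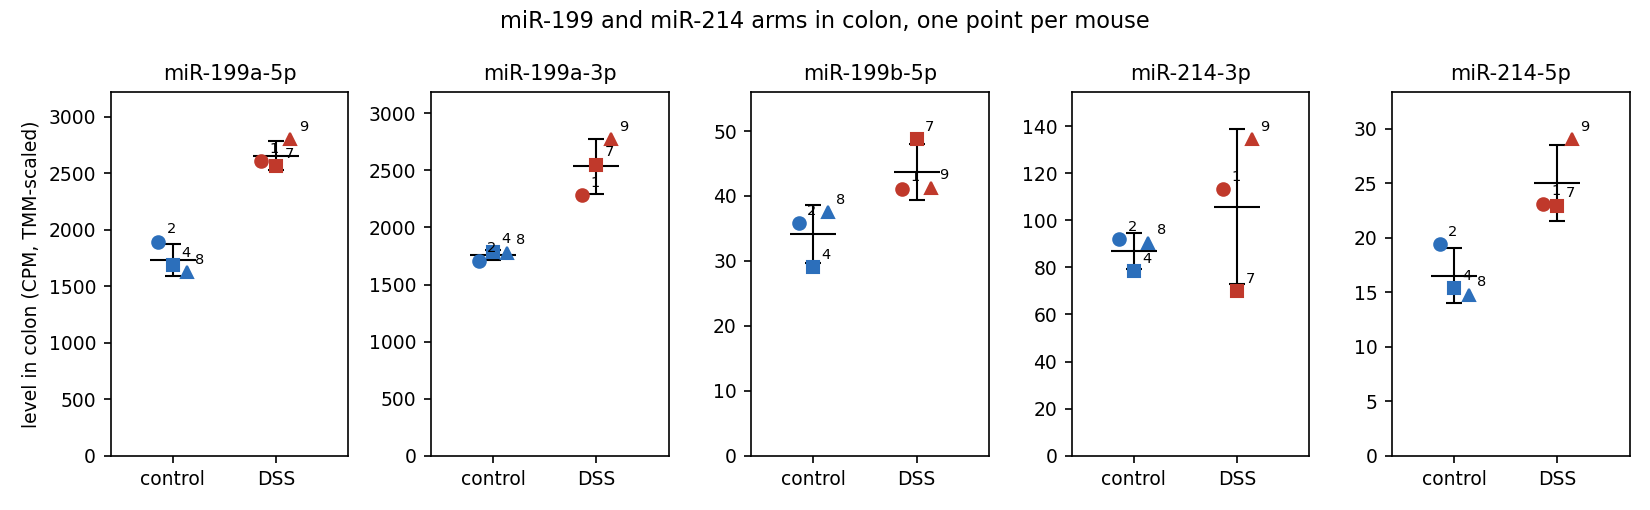
Level of each arm in colon (CPM, TMM-scaled, linear axes from 0) for 3 control and 3 DSS mice, with 1 point per mouse labelled by its number; the horizontal line is the mean and the bar is 1 SD. DSS and control points are apart for miR-199a-5p, miR-199a-3p, miR-199b-5p and miR-214-5p, and for miR-214-3p they overlap, with mouse 7 at 70.0 CPM and mouse 9 at 134.

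Summed over the 5 sequences, the members made up 5070, 5255 and 5775 CPM in the colon of DSS mice 1, 7 and 9, and 3750, 3597 and 3544 CPM in control mice 2, 4 and 8. miR-199a-5p made up 45.8% to 51.4% of the sum and the shared 3p sequence 45.1% to 50.2%, so these 2 sequences set it. miR-214-3p made up 1.33% to 2.55% and each of the others less than that. By rank among the distinct sequences of a colon library, miR-199a-5p was at place 34 to 39 in DSS mice and 43 to 48 in controls.

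Whether these calls were made depended on the libraries and the scaling, and the direction depended on the grouping. miR-199a-5p was higher in all 16 alternatives that kept the grouping, with a log2FC of 0.51 to 0.84, and it passed in 8 of them. The shared 3p sequence was higher in all 16, with 0.42 to 0.76, and passed in 5. DESeq2's Wald test, the one named in the study, passed both, with a padj of 0.0076 for miR-199a-5p and 0.0343 for miR-199a-3p, beside 10.1% called as higher and 6.9% as lower of the 536 miRNAs to which it gave an adjusted p. RLE factors gave a padj of 0.0522 and 0.0574, upper-quartile factors 0.0870 and 0.167, limma on the deposited normalized values 0.0867 and 0.115, and all 12 libraries in 1 fit 0.421 and 0.529. Total counts alone (0.0448 and 0.0526) and no filter on low counts (0.0359 and 0.0805) kept the call on miR-199a-5p only. Leaving out mouse 2, 4, 7 or 8 ended both calls, with a padj of 0.0925, 0.151, 0.101 and 0.147 for miR-199a-5p and of 0.101 to 0.154 for miR-199a-3p, and in these 4 fits edgeR called 0 miRNAs of the whole table. Without mouse 9 the padj was 0.0444 for miR-199a-5p and 0.0584 for miR-199a-3p, and without mouse 1 both passed. With the grouping of the disease state field all 5 sequences had a negative log2FC, -0.17 for miR-199a-5p and -0.30 for miR-199a-3p, and none passed. Of the 542 miRNAs edgeR called 0 with that grouping and 64 with the one used here.

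**Figure D2:**
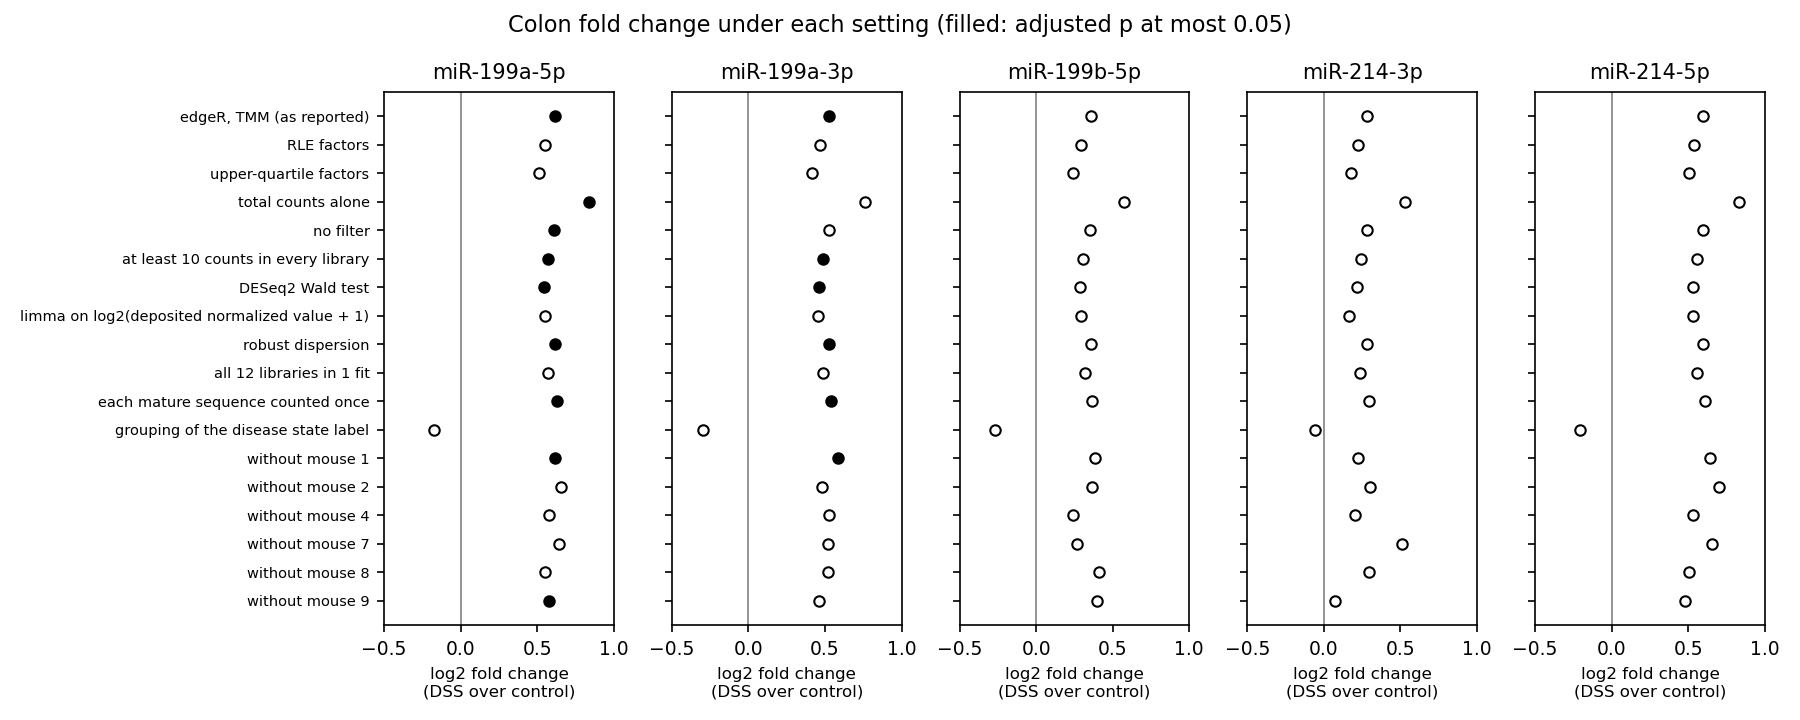
Log2 fold change in colon (DSS over control, horizontal axis) of each arm under the reported fit and each alternative (rows); filled points have an adjusted p of at most 0.05 and open points do not. All points lie to the right of 0 except those for the grouping of the disease state label, and filled points occur only for miR-199a-5p and miR-199a-3p.

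The members were then set beside miRNAs listed for the cell types of the colon, to show what else moved in the same libraries. In a list of 34 other stromal and fibroblast miRNAs, 7 passed as higher in DSS mice, 0 passed as lower and 27 did not pass, with a median log2FC of 0.38, beside 7.56% of all miRNAs tested as higher and 4.24% as lower. Those that passed were miR-127-3p, miR-379-5p, miR-382-5p, miR-409-3p and miR-411-5p, all known from the imprinted Dlk1-Dio3 cluster, and miR-450a-5p and miR-224-5p. miR-127-3p was at 1383 ± 108 CPM in DSS mice against 955 ± 88.5 in controls (SD, n = 3 each), with a log2FC of 0.53 and a padj of 0.0475 by edgeR. miR-224-5p had the highest log2FC of the list, 1.69 (SE 0.43, padj 0.0491 by edgeR). Of the 34, 0 passed by edgeR with RLE or upper-quartile factors, with all 12 libraries in 1 fit or without mouse 1, 2, 4, 7 or 8, and 0 with limma, while DESeq2 called 8, all higher. The median log2FC of the list was 0.26 to 0.59 over the alternatives that kept the grouping.

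The 4 stromal miRNAs with the highest level in colon did not pass. miR-143-3p, which is known from smooth muscle as well as fibroblasts, was at 314441 ± 52131 CPM in DSS mice and 318553 ± 38393 in controls, with a log2FC of -0.02. miR-21a-5p, known to be induced in inflammation, was at 59588 ± 15180 against 36699 ± 2364 CPM, without overlap and with a log2FC of 0.70 (padj 0.0863 by edgeR). miR-10b-5p, whose reads can be shared with its close relative miR-10a-5p, had a log2FC of 1.68 (padj 0.106 by edgeR) with overlapping groups. miR-27b-3p had a log2FC of -0.41 (padj 0.157 by edgeR) and was lower in the DSS mice without overlap, as was its cluster neighbour miR-23b-3p, with -0.44 (padj 0.118 by edgeR). Of all miRNAs tested in colon, 16.1% were lower without overlap.

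In the list of smooth and striated muscle, 0 of 8 tested passed by edgeR, with a median log2FC of -0.31, and every tested member had an unadjusted p above 0.05. Of all 542 miRNAs tested in colon, 4.24% passed as lower and 7.56% as higher. Of the epithelial list, 7 of 14 passed as lower and 0 as higher, with a median log2FC of -1.08. They were miR-141-3p and miR-429-3p of the miR-200 family, miR-192-5p, miR-194-5p, miR-96-5p, miR-182-5p and miR-183-5p. The summed level of the list was 58330 to 140894 CPM in DSS mice and 169506 to 211607 in controls. Of the leukocyte list, 4 of 8 passed as higher, namely miR-146a-5p, miR-155-5p, miR-223-3p and miR-223-5p, with a summed level of 1441 to 2671 CPM in DSS mice and 931 to 1312 in controls. With RLE or upper-quartile factors 3 epithelial and 1 leukocyte miRNAs passed. With all 12 libraries in 1 fit or without mouse 2, 4, 7 or 8 edgeR called 0 on either list, and without mouse 9 it called 2 on each. More passed without a filter on low counts (12 epithelial as lower, 6 leukocyte as higher), with DESeq2 (11 and 5) and without mouse 1 (11 and 6). No member of these lists was at 0 in all colon libraries.

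Among the endothelial miRNAs, miR-126a-3p and miR-126a-5p had a log2FC of 0.41 and 0.46, with a padj of 0.0645 and 0.0629 by edgeR, and neither passed. The 4 erythroid miRNAs tested had log2FC values of 0.00 to 0.17 and none passed by edgeR, each with an unadjusted p above 0.05. Of these, miR-486a-5p and miR-486b-5p share a sequence, and with each sequence counted once 3 were tested. The epithelial sum was lowest in DSS mouse 9, the leukocyte sum highest in mouse 9, and the summed level of the miR-199 and miR-214 sequences was also highest in that mouse. The part of the epithelial and leukocyte differences in the level of the members was not tested.

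Ratios of the summed members to a list do not depend on the scaling of a library. miR-143-3p, which is on both the muscle and the stromal list, makes up most of both sums. To the muscle list the ratio was 0.0144, 0.0148 and 0.0221 in DSS mice 1, 7 and 9 and 0.0111, 0.0126 and 0.00976 in control mice 2, 4 and 8. To the stromal list it was 0.0105, 0.0115 and 0.0153 in the DSS mice and 0.00906, 0.00986 and 0.00804 in the controls. The groups do not overlap for either ratio, and they do not for the summed members alone (5070 to 5775 CPM in DSS mice, 3544 to 3750 in controls). Of the single miRNAs tested in colon, 22.5% were higher without overlap. To the endothelial list the ratio was 0.691, 0.755 and 0.842 in the DSS mice and 0.675, 0.699 and 0.687 in the controls, which overlap. To the epithelial list it was 0.0360 to 0.0990 in the DSS mice and 0.0170 to 0.0221 in the controls, without overlap. To the leukocyte list it was 3.52, 2.57 and 2.16 in the DSS mice and 4.03, 2.74 and 3.45 in the controls, and to the erythroid list 1.57, 1.11 and 1.48 against 1.20, 0.839 and 1.10. Groups overlap for both, and the erythroid sum counts the sequence shared by miR-486a-5p and miR-486b-5p under both names.

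**Figure D3:**
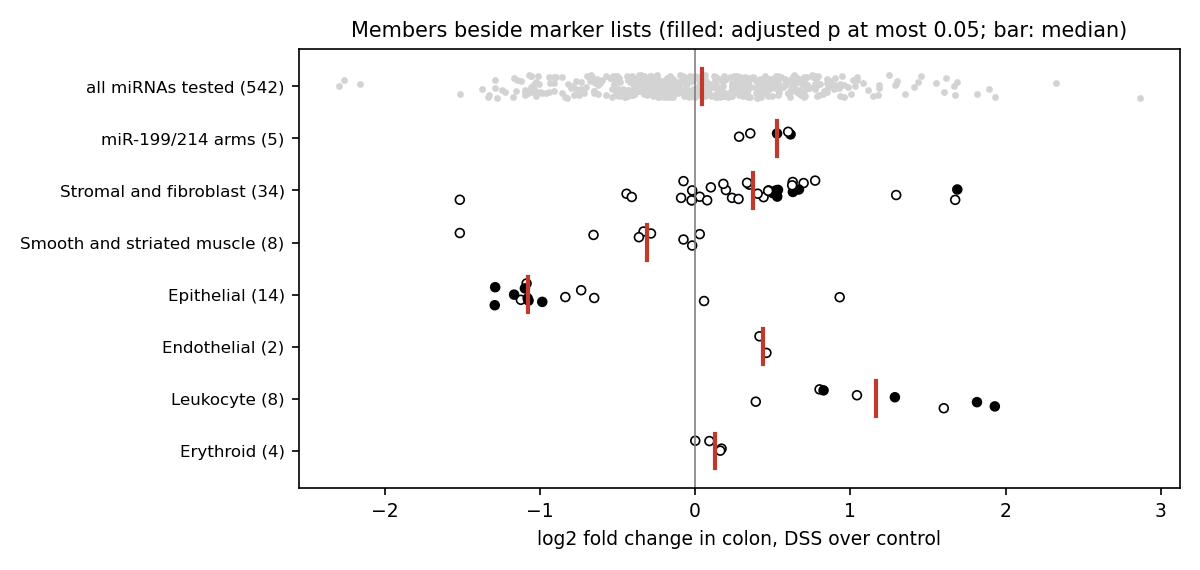
Log2 fold change in colon (DSS over control) of each miRNA tested, for all miRNAs, the 5 distinct miR-199 and miR-214 sequences and 6 cell type lists, with the number tested in parentheses; red bars are medians, and filled points have an adjusted p of at most 0.05 (not marked in the row of all miRNAs). The median is 0.53 for the miR-199 and miR-214 sequences, 0.38 for the stromal list, -0.31 for muscle and -1.08 for epithelium.

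The miRNAs whose levels were most like those of miR-199a-5p were found by Pearson's r of log2(CPM + 1), as a description over libraries that share their scaling and the difference between the groups. Over the 6 colon libraries, among 541 miRNAs, they were miR-433-3p (r = 0.991), miR-434-3p, miR-494-3p, miR-300-3p, miR-369-3p, miR-450a-5p, miR-337-5p and miR-212-5p (r = 0.978). Of these 8, 6 lie on chromosome 12 between bases 109585818 and 109743486 of GRCm38.p6, a stretch that holds 9.59% of the 542 miRNAs tested in colon. The members themselves spread widely in that order. miR-214-5p came at place 16 (r = 0.964), miR-199a-3p at 27 (r = 0.934), miR-199b-5p at 118 (r = 0.750) and miR-214-3p at 196 (r = 0.473).

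Over all 12 libraries, where the difference between tissues sets most of the pattern, the most alike of 679 miRNAs compared were miR-125b-5p (r = 0.998), miR-543-3p, miR-433-3p, miR-434-3p, miR-100-5p, miR-434-5p, miR-455-3p and miR-485-5p, apart from the members. Among the members, miR-214-5p came at place 6 (r = 0.996), before miR-434-5p, and miR-214-3p, miR-199a-3p and miR-199b-5p at 47, 56 and 157. miR-433-3p and miR-434-3p are in both sets of 8. In colon, miR-433-3p was higher in DSS mice with a log2FC of 0.58 (SE 0.13) and miR-434-3p with 0.61 (SE 0.13), each with a padj of 0.0431 by edgeR. miR-125b-5p, a stromal miRNA, had a log2FC of 0.28 and a padj of 0.245 by edgeR.

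The second comparison asked the same of blood, where the members were rare. No member passed in blood, where edgeR called 0% of 484 miRNAs as higher and 0% as lower. At an unadjusted p under 0.05 there were 56 miRNAs (11.6%), 1 of them a member, miR-214-3p. DESeq2 gave an adjusted p to 287 miRNAs and called 10, 3 higher (1.05%) and 7 lower (2.44%). It gave none to miR-199b-5p, miR-214-3p and miR-214-5p, and it did not call the 2 member sequences that had one. All 4 member sequences tested had a log2FC below 0, and 45% of the miRNAs tested had one above 0. The median log2FC was -0.59 over the 4 and -0.05 over all. No member had groups that do not overlap, which held for 9.92% of the miRNAs tested as lower and 7.44% as higher.

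miR-199a-5p, at 242 to 628 counts per blood library, was at 6.92, 20.3 and 13.4 CPM in DSS mice 1, 7 and 9. Controls had 18.4, 13.9 and 15.6 CPM in mice 2, 4 and 8. The lowest and the highest value both come from DSS mice, and the log2FC was -0.24 (SE 0.37, padj 0.866 by edgeR), with a 95% interval of -1.10 to 0.61. The direction rests on mouse 1, without which the log2FC was 0.13.

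The shared miR-199-3p sequence was at 5.24, 3.00 and 4.94 CPM in the DSS mice and 3.91, 5.58 and 8.14 in the controls, with a log2FC of -0.42 (padj 0.697 by edgeR) that was -0.06 without mouse 8 and -0.16 without mouse 7. miR-199b-5p was at 0.931, 0.677 and 1.89 CPM in the DSS mice and 0.584, 1.44 and 3.66 in the controls, with a log2FC of -0.76 (SE 0.63, padj 0.697 by edgeR). For both the groups overlap. The value for miR-199b-5p rests on control mouse 8, without which it was 0.25.

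miR-214-3p had 11, 25 and 11 counts in the blood of DSS mice 1, 7 and 9 and 43, 31 and 21 counts in control mice 2, 4 and 8. In CPM these are 0.277, 0.806 and 0.508 against 1.93, 1.78 and 0.712, and only the ranks of DSS mouse 7 and control mouse 8 cross. The log2FC was -1.47 (SE 0.51), with an unadjusted p of 0.020 and a padj of 0.360, by edgeR. Without the filter on low counts its log2FC was -1.43 and it passed with a padj of 0.0367, beside 18 of 1121 miRNAs (1.61%) that passed as lower in that fit. miR-214-5p, with 0, 2 and 0 counts in DSS mice and 3, 0 and 2 in controls, was left out by the filter and was too rare at this depth for a difference to be detectable. In a library with 0 counts, up to 3 counts are allowed by counting error.

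Whether the effect of DSS differs between the tissues was tested as an interaction over all 12 libraries. No member passed, as was the case for all 680 miRNAs (0%), of which 94 (13.8%) had an unadjusted p under 0.05. The effect in blood minus that in colon was -0.55 (95% interval -1.52 to 0.43) for miR-199a-5p, -0.68 (-1.70 to 0.34) for miR-199a-3p and -0.95 (-2.53 to 0.63) for miR-199b-5p, on the log2 scale. For miR-214-3p it was -1.37 (-2.56 to -0.17), with an unadjusted p of 0.0277 and a padj of 0.300 by edgeR, and DESeq2 called it, with -1.82 and a padj of 0.0318, as it did 37 of the 415 miRNAs with an adjusted p (8.92%). For miR-214-5p it was -1.83 (-4.19 to 0.53), which cannot show a difference because each blood library held only 0 to 3 counts. The filter kept miR-214-5p in this fit through its colon counts. Leaving out 1 mouse moved the value between -1.23 (without mouse 9) and -4.54 (without mouse 7). The value for miR-214-3p ranged from -0.98 (without mouse 9) to -2.08 (without mouse 7).

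The third comparison set the level in blood against that in colon of the same mice. All 5 sequences were lower in blood by edgeR, which was the case for 51.3% of 680 miRNAs, while 89.1% differed in either direction. The 5 include miR-214-5p, which the filter kept through colon alone. With TMM factors over the 12 libraries, miR-199a-5p was at 19.1 ± 7.06 CPM in blood and 1693 ± 376 in colon (SD, n = 6 each), a log2 difference of -6.44 (SE 0.29, padj 1.39e-11 by edgeR). The difference was -7.92 (SE 0.32) for miR-199a-3p, -6.04 (SE 0.33) for miR-214-3p and -3.92 (SE 0.41) for miR-199b-5p, with a padj of at most 2.06e-07 by edgeR. miR-214-5p, with 7 counts over all blood libraries and 2262 in colon, had a difference of -8.07 (SE 0.46, padj 1.55e-10 by edgeR). The filter kept miR-214-5p through its colon counts alone, so its test could come out only as lower in blood. Without the filter its difference was -8.28. Scaled by total counts alone and not by TMM factors, its pooled level in blood was 0.203% of that in colon (95% exact interval 0.0816% to 0.419%, counting error only). The sizes depend on the scaling: the difference was -5.23 with upper-quartile factors and -7.22 with total counts alone for miR-199a-5p, and -2.73 and -4.61 for miR-199b-5p. The total counts, on which the pooled level also rests, include a sequence under each of its names. Over these totals miR-199a-5p in mouse 1 was at 9.19 CPM in blood and 2416 in colon. With each sequence counted once it was at 14.6 and 2425 CPM. With TMM factors and each sequence once, its difference was -6.48.

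Within a mouse and with TMM factors, miR-199a-5p in blood was 0.586% to 1.76% of its level in colon, and the shared 3p sequence 0.232% to 0.836%. miR-214-3p was at 0.540% to 3.03% and miR-199b-5p at 2.24% to 17.8%. By the median over mice the order was miR-199b-5p (5.80%), miR-214-3p (1.86%), miR-199a-5p (1.218%), miR-199a-3p (0.365%) and miR-214-5p (0.278%, with 0 to 3 counts per blood library). Ranges of neighbours in that order overlap. The medians of the other lists were 1.97% for stromal miRNAs, 0.203% for muscle, 0.482% for endothelium and 103% for leukocytes. Single miRNAs ranged from 0% to 848% on the stromal list and from 0.106% to 1671% on the muscle list. They ranged from 0.311% to 0.653% on the endothelial list and from 6.09% to 2709% on the leukocyte list. By rank, miR-199a-5p was at place 34 to 48 in colon and 140 to 207 in blood.

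**Figure D4:**
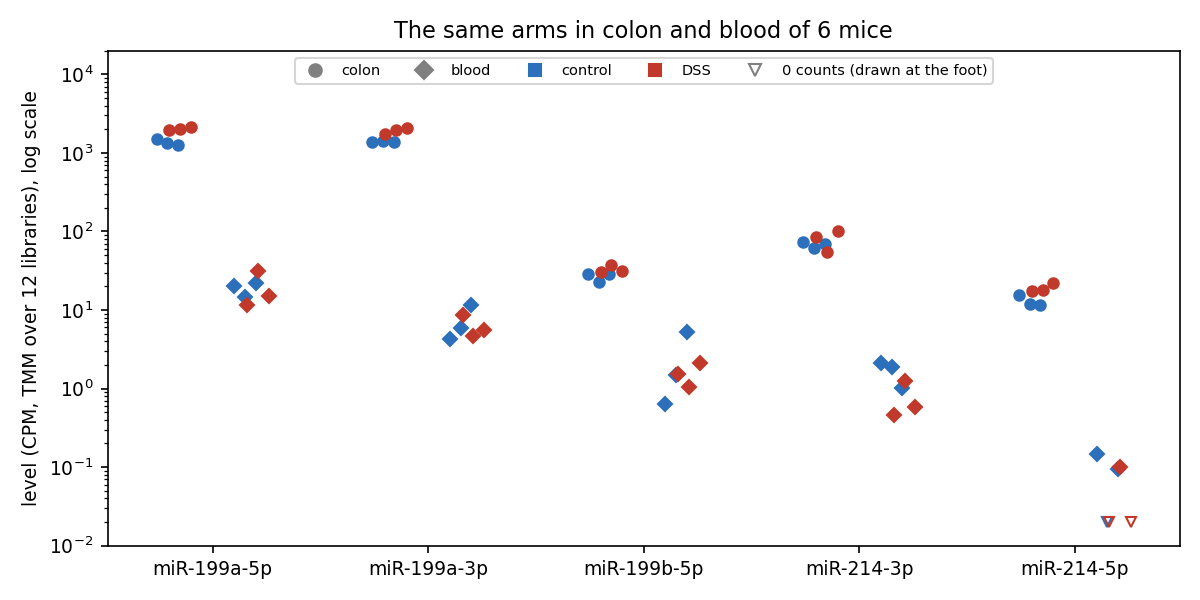
Level of each arm (CPM with TMM factors over 12 libraries, log axis) in colon (circles) and blood (diamonds) of 3 control (blue) and 3 DSS (red) mice; open triangles drawn at the foot stand for libraries with 0 counts. Every arm is lower in all blood libraries than in all colon libraries, and the distance is smallest for miR-199b-5p.

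The arms did not fall by equal amounts, so their proportions differed between the tissues. The ratio of the counts of miR-199a-5p to those of miR-199a-3p was 0.912 to 1.14 in the 6 colon libraries and 1.32 to 6.72 in the 6 blood libraries. It was higher in blood in 6 of 6 mice, without overlap, by 1.49 on the log2 scale. The two-sided exact permutation test gave a p of 0.0022, the smallest it can give, and 0.0032 after adjustment over the 3 ratios compared between tissues, and the exact sign-flip test within mice gave 0.0312, also its smallest.

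The ratio of miR-199a-5p to miR-199b-5p moved the other way, from 43.2 to 67.8 in colon to 4.25 to 30.4 in blood. It was lower in blood in 6 of 6 mice, with a log2 difference of -2.33, with an exact permutation p of 0.0022 and an adjusted p of 0.0032. The exact sign-flip test within mice gave 0.0312. In blood this ratio rests on 13 to 108 counts of miR-199b-5p. The ratio of miR-199a-5p to miR-214-3p was 17.9 to 36.6 in colon and 7.70 to 25.3 in blood. The log2 difference was -0.43, with an exact permutation p of 0.286 and an exact sign-flip p within mice of 0.281.

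DSS mice and controls overlapped in these ratios in colon. The ratio of miR-214-3p to miR-214-5p there was 4.89, 3.05 and 4.63 in DSS mice 1, 7 and 9 and 4.74, 5.08 and 6.11 in control mice 2, 4 and 8, a log2 difference of -0.36 with an exact permutation p of 0.2. With 3 mice a group no two-sided exact test can go below 0.1. In blood, the ratio of miR-199a-5p to miR-214-3p was 24.0, 24.6 and 25.3 in DSS mice 1, 7 and 9 and 9.44, 7.70 and 21.5 in control mice 2, 4 and 8. These do not overlap, with a log2 difference of 1.09, an exact permutation p of 0.1 and an adjusted p of 0.3 over 3 ratios in blood, and the DSS values rest on 11 to 25 counts of miR-214-3p.

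**Figure D5:**
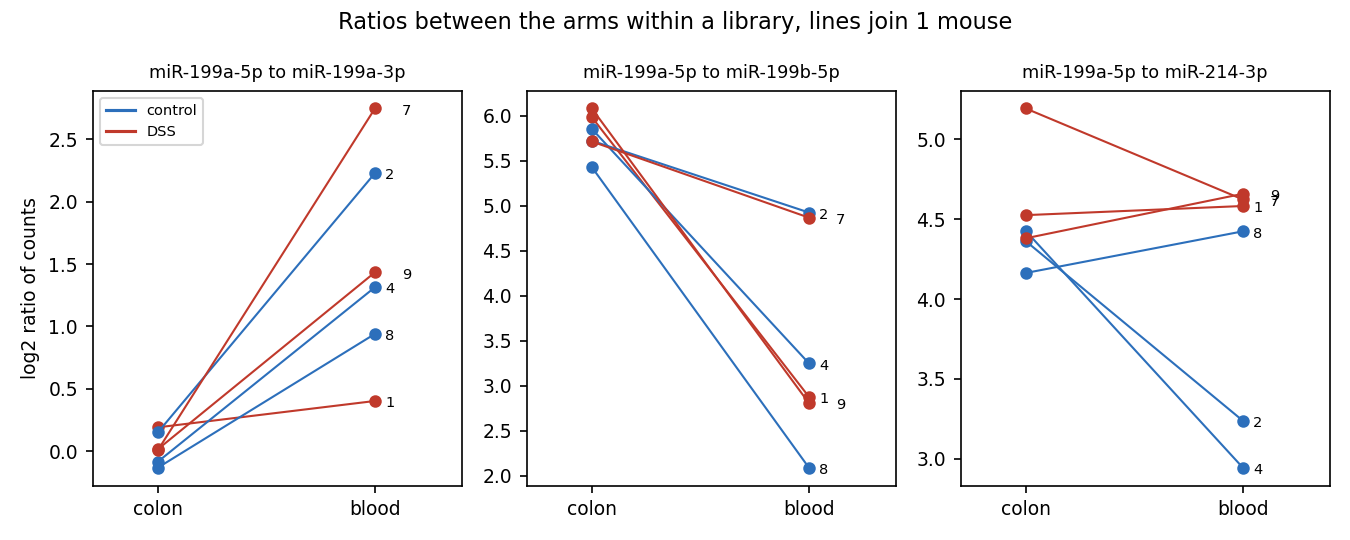
Log2 ratio of the counts of miR-199a-5p to miR-199a-3p, to miR-199b-5p and to miR-214-3p in colon and blood, with 1 line per mouse labelled by its number (blue, control; red, DSS). The first ratio is higher and the second lower in blood in 6 of 6 mice, while the third overlaps between the tissues.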

How the data were processed

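Small RNA of colon and whole blood of 6 mice was sequenced on an Illumina instrument. The authors removed adapters with Flexbar, merged identical reads with fastx-toolkit, and ran miRDeep2 (2.0.1.0, quantifier at its defaults) against miRBase version 22 to obtain the deposited unnormalized counts per miRNA. A second pair of tables that the authors deposited, 1 per tissue, holds a normalized signal, the count divided by a size factor from DESeq2 (1.22.2), which was used only in limma. No molecular identifiers are named, so the exact interval of the pooled level covers counting error only. The intervals from edgeR rest on its SE and include the spread between mice.

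The main test was the quasi-likelihood test of edgeR (4.0.16, under R 4.3.3): filterByExpr, TMM factors, glmQLFit and glmQLFTest, in each tissue alone, and over 12 libraries for tissue and interaction. The SE is the log2FC divided by the square root of F. Ratios between arms used counts with 0.5 added and exact tests in Python (3.11.15) with scipy (1.17.1). DESeq2 (1.42.0) and limma (3.58.1) on log2(value + 1) were alternatives, as were other factors and filters, robust dispersion, 1 row per sequence, all 12 libraries in 1 fit, the grouping of the disease state field, a replicate block and leaving out each mouse. The p-values measure the spread between mice.

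Mice were paired between tissues because both libraries of a number come from the same animal. Deviations from the group means correlated between the libraries of a mouse with r of -0.30 to 0.16 over 357 miRNAs.

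The members and the lists of cell type miRNAs were chosen with earlier results of these data known. Named are the members, the 8 miRNAs most like miR-199a-5p in colon and in all libraries, the 4 stromal miRNAs with the highest level in colon, and list members that passed in colon. miR-126a-3p, miR-126a-5p and miR-125b-5p, and the relative miR-10a-5p, are named beside them, and miR-23b-3p was added after its values were seen. Promoters were not used. Mature sequences are those of the deposited tables, and positions and hairpins are from RefSeq and GENCODE on GRCm38.p6. The total RNA libraries were not analysed here.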

Additional observations from a re-analysis of the deposited data

How the results depend on the processing

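In colon, 2 member sequences passed as reported, 0 with RLE factors, upper-quartile factors, limma, all 12 libraries in 1 fit or the grouping of the disease state field, 1 with total counts alone and 1 without a filter, and 0 to 2 when each mouse was left out. In blood 0 passed as reported and 1, miR-214-3p, without a filter. In the interaction 0 passed as reported and 1, miR-214-3p, with DESeq2. All 5 sequences were lower in blood than in colon under all 13 alternatives, miR-214-5p among them with 0 to 3 counts per blood library. The replicate block left the numbers that passed at 5 for tissue and 0 for the interaction and changed no other call.

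With the grouping of the disease state field, the colon log2FC turned to -0.17 for miR-199a-5p, -0.30 for miR-199a-3p and the identical miR-199b-3p, -0.27 for miR-199b-5p, -0.056 for miR-214-3p and -0.21 for miR-214-5p. In blood that of miR-214-3p turned to 0.91, and in the interaction miR-199a-3p turned to 0.078, miR-199b-3p to 0.077 and miR-214-3p to 0.67. In blood miR-199a-5p turned to 0.024 with all 12 libraries in 1 fit and ranged from -0.62 to 0.13 when each mouse was left out, above 0 without mouse 1. miR-199b-5p ranged from -1.21 to 0.25 in blood and from -1.43 to 0.15 in the interaction, above 0 without mouse 8. The ratios of arms between tissues kept their direction and their side of the threshold in all alternatives run, from 1.24 to 1.74 for miR-199a-5p to miR-199a-3p and from -2.64 to -2.13 for miR-199a-5p to miR-199b-5p on the log2 scale. The causes of these changes were not tested. Low counts limit miR-214-3p and miR-214-5p in blood, with at most 43 and 3 per library.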
